A study of Zea mays with 4 samples.

Results

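The gene models that took the most reads in the central starchy endosperm of maize, the inner storage tissue of the kernel, are described here across 4 replicate libraries. The models were ranked by their mean RPM, the reads of a model per 1000000 reads summed over all models of a library. The 150 models with the highest mean RPM were taken. The rule then left out 11 listed genes of glycolysis, fermentation, the pyruvate phosphate dikinase step and the endosperm factor gene fl3, of which 9 stood among the 150, and 141 models remained. One pair of models held equal reads in every library and was merged, which gave 140 members of the 110028 models in the files. The levels chose the members, so they are given as a description, with no test. All 4 libraries belong to 1 group. They come from 6 DAP (days after pollination) kernels of B73, an inbred line, borne on greenhouse plants that were self-pollinated. The tissue was cut out by laser-capture microdissection, and the polyadenylated RNA was amplified. The labels number the replicates without saying whether separate plants or ears supplied them, and the spread below is therefore that between these libraries, which may be technical.

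At this stage the young endosperm has formed cell walls and its cells still divide, while bulk storage of starch and protein lies mostly ahead. Cells that grow and divide put much of their messenger RNA into a small set of jobs that every cell needs. These are the ribosome and the factors that feed it, the tubulin and actin filaments that shape and divide the cell, the proteins that pack DNA, and the chaperones that fold new proteins. Genes for such jobs often belong to families, and a tissue tends to draw on some copies of a family more than on others.

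Recovered depth was 3432952, 5428283, 4754684 and 5477465 reads in replicates 1 to 4. No library had fewer than 1964 reads on a member. That lowest value, for GRMZM2G121075 in replicate 1, was 572 RPM with an exact 95% Poisson interval of 547 to 598 RPM, which covers counting error only. Markers of other kernel regions were present at levels that differed between libraries. The summed level of 8 basal transfer layer markers was 293, 600.4, 501 and 60.6 RPM in replicates 1 to 4. None of the 8 was at 0 over all libraries. Of these, ebe1 had 26.2, 22.1, 25.9 and 27.2 RPM and was highest in replicate 4. Each of the others was lowest there. The summed level of 3 markers of the embryo-surrounding region lay between 1.64 RPM, in replicate 4, and 33.9 RPM. Of 8 starchy endosperm markers, 3 were at 0 in every library. These were the zein gene fl2, the starch synthase gene wx1 and the regulator gene o2. The sum was at most 137 RPM, in replicate 4, where the marker nkd1 alone had 105 RPM. The markers nkd2 and gz27 were also highest there. The marker bt2 was lowest there, at 0.183 RPM, and sh2 was highest in replicate 3, at 0.631 RPM. The summed aleurone markers lay between 109 RPM, in replicate 4, and 135 RPM. Among them sal1, dek1 and vpp1 were lowest in replicate 4, cr4 was highest there at 29.2 RPM, and c1 and r1 were at 0 in every library. The summed embryo markers lay between 25.3 RPM and 45.5 RPM, the second value in replicate 4. The markers ole1 and wox2a were highest there, wox5b and glb2 were at 0 in every library, and kn1 was at most 0.291 RPM. Markers of maternal and green tissue summed to at most 1.46 RPM. No model on these lists was a member.

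The 140 members took 23.7, 22.7, 24.2 and 25.7% of all reads in replicates 1 to 4, a mean of 24.1 ± 1.28% (SD, n = 4). The next 150 models in the ranking took 8.43 ± 0.0517%. Replicate 4 gave the members the largest share of its reads and replicate 2 the smallest. Mean levels of members ran from 719 to 24675 RPM with a median of 1113 RPM, and 84 of the 140 exceeded 1000 RPM. Just inside the threshold stood GRMZM2G178968, GRMZM2G330098 and GRMZM2G150648 at 726, 722 and 719 RPM. Just outside it stood GRMZM2G026216, the high mobility group gene HMG11 and GRMZM2G367842 at 711, 708 and 705 RPM. Means of these 6 neighbours differed by less than the SD of any of them, which ran from 46.9 to 148 RPM.

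**Figure D1:**
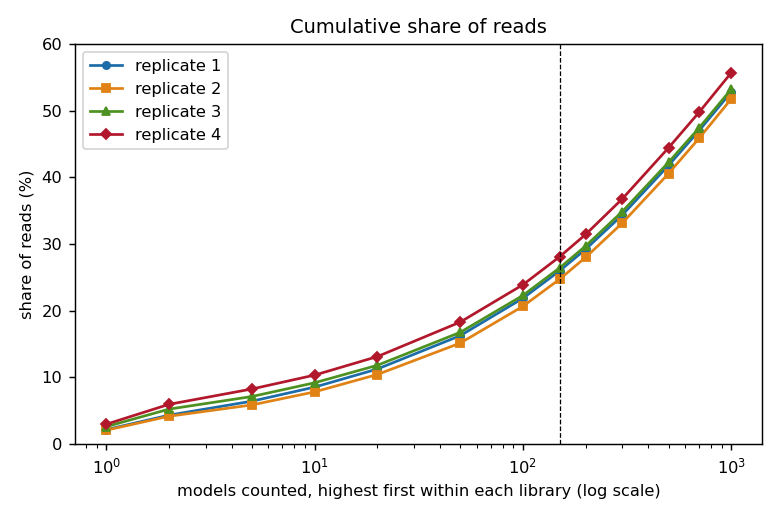
Cumulative share of reads (y axis, %) against the number of models counted from the highest down within each library (x axis, log scale), 1 line per replicate, with a dashed line at 150 models. At 150 models replicate 4 had reached 28.1% and replicate 2 had reached 24.7%, with replicates 1 and 3 between them.

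Part of this share may be counted more than once. No coordinates were used, so whether the models below overlap was not seen. In 8 pairs of models among the 141, reads differed by under 1% in every library. The 16 models of these pairs were 11.3% of the 141, against 3.78% of all models at a mean of 10 RPM or more that had such a partner. The limit of 1% allows a difference of more reads in abundant models than in others, so these shares are not wholly alike. In 5 pairs 1 model had a record in the RefSeq gene table and its partner had none, and in the other 3 neither had one. The largest pair was grp1 (GRMZM2G080603) and GRMZM5G836166, whose reads differed by at most 0.0128%, or 21 reads in a library. The others with a RefSeq record were GRMZM2G305280 with GRMZM5G856773, GRMZM2G015295 with GRMZM2G494688, ndpk1 (GRMZM2G178576) with GRMZM5G899097, and RAB15 (GRMZM2G165901) with GRMZM2G166026. Reads of such a pair cannot be assigned to either model. With each pair counted once, 133 members remained and took 20.8 ± 0.803% of reads, with the library totals left unchanged.

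The RefSeq table held a record for 104 of the 140 members, or 74.3%, against 74.0% of the next 150 models and 56.7% of the 21181 models with a mean of 1 RPM or more. The members' share was thus close to that of the models ranked just below them. Of the members, 30 carried a gene name, 74 only a locus number, and 36 had no record. The members without a gene name summed to 9.60% of reads for those with a locus number and 6.94% for those with no record, the second sum including the partner of grp1. Gene names placed 24 members in 13 classes by name pattern, and 6 named members fell in none. The lists behind these classes were chosen with earlier results of these data known. Lengths of transcripts were not used here, so a level is a share of reads, which for equally abundant transcripts grows with their length.

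**Figure D2:**
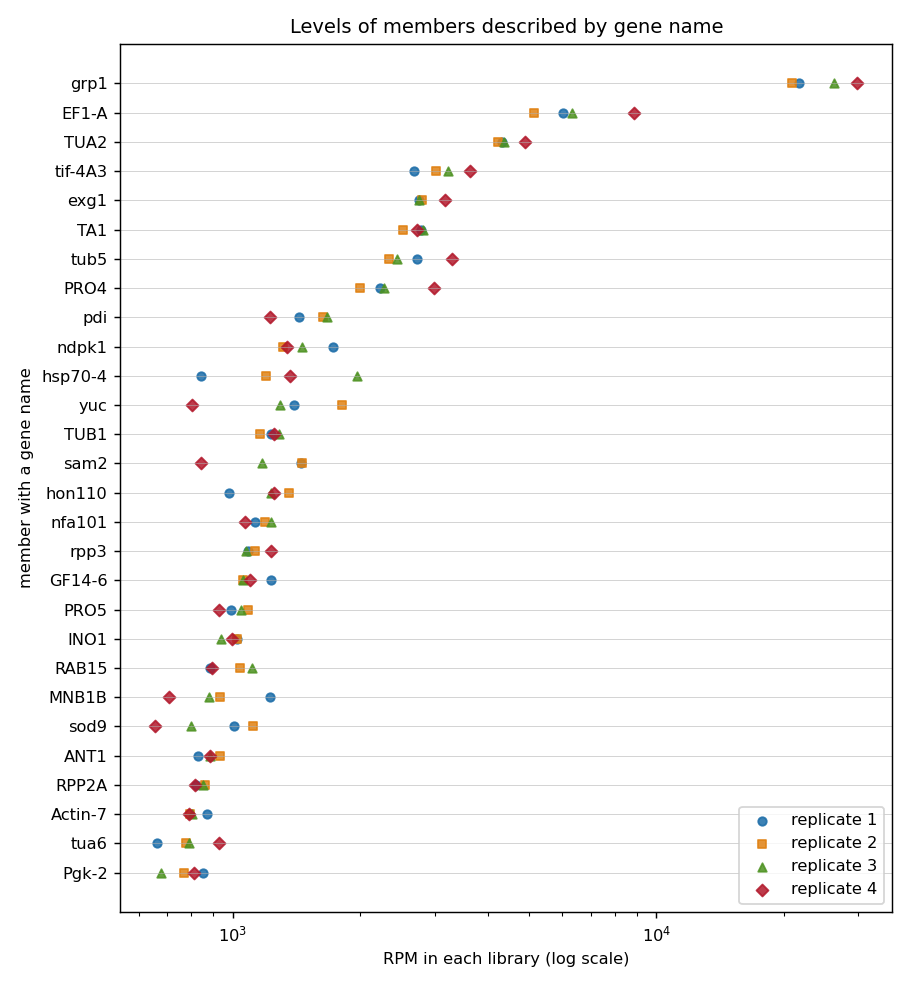
RPM in each library (x axis, log scale) of the members described by gene name (y axis, ordered by mean), with 1 symbol per replicate. The symbols of grp1 lie between 20900 and 29838 RPM, apart from all others, and those of hsp70-4 and yuc spread more widely than those of their neighbours.

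The glycine-rich protein gene grp1 held the largest share of reads of any member. Plant proteins of this kind carry glycine-rich stretches and include RNA-binding proteins and wall proteins, and the files do not say to which kind grp1 belongs. Its level was 21720, 20900, 26241 and 29838 RPM in replicates 1 to 4, a mean of 24675 ± 4167 RPM. Replicates 3 and 4 were high and replicates 1 and 2 low, and in every library grp1 ranked above all other named members. The highest library was 1.43 times the lowest, far outside the counting interval of 29694 to 29983 RPM in replicate 4. Of the other glycine-rich protein names in the table, 1 averaged 0.0461 RPM and 1 was at 0 in every library.

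Translation was represented by factor genes and ribosomal protein genes. EF1-A, which encodes the elongation factor that brings aminoacyl-tRNA to the ribosome, had 6041, 5139, 6314 and 8856 RPM in replicates 1 to 4. The gene tif-4A3, named for the RNA helicase subunit of the cap-binding initiation complex, had 2683, 3022, 3218 and 3638 RPM. Both were highest in replicate 4, with ranges of 1.72-fold and 1.36-fold.

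The ribosomal members rpp3 and RPP2A encode acidic proteins of the stalk of the large subunit, the site where elongation factors dock. The gene rpp3 averaged 1131 ± 70.1 RPM. RPP2A had 819, 859, 852 and 816 RPM, a range of 1.05-fold, the second smallest among the members. Ribosomal protein names were carried by 35 models in all. Of these 32 reached a mean of 1 RPM and 22 a mean of 100 RPM, so the class extended far below the members. All 8 models with translation factor names averaged 1 RPM or more. Outside the members, eif5a had the highest level of these at 628 RPM, and tif4A2 the lowest at 1.80 RPM.

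The cytoskeleton was represented by 4 tubulin genes and 3 genes of the actin system. Alpha-tubulin and beta-tubulin pair into the subunits of microtubules, which build the mitotic spindle and guide the deposition of cellulose. The alpha-tubulin model GRMZM2G153292, which bears the names TUA1 and TUA2 from a pair of RefSeq records, had 4325, 4227, 4374 and 4895 RPM. The beta-tubulin gene tub5 had 2725, 2338, 2439 and 3295 RPM. A second beta-tubulin gene, TUB1, had 1235, 1158, 1290 and 1253 RPM, a range of 1.11-fold. A further alpha-tubulin gene, tua6, averaged 790 ± 108 RPM with a range of 1.40-fold. TUA1/TUA2, tub5 and tua6 were highest in replicate 4, while TUB1 was highest in replicate 3 by RPM and in replicate 4 with TMM or DESeq2 scaling, which set library sizes from the bulk of the models. The 4 genes summed to 8949, 8502, 8894 and 10370 RPM.

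All 13 models with tubulin names averaged at least 1 RPM, and 7 at least 100 RPM. Below the members stood tub6 at 414 RPM, tua5 at 211 RPM and TUBB2 at 121 RPM, and the lowest was tua4 at 6.93 RPM. Tubulin genes are near-identical in their coding parts, so how the authors' counting split reads between copies can set these levels.

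Profilin binds actin monomers and governs the growth of actin filaments. The profilin gene PRO4 had 2230, 1994, 2281 and 2992 RPM, highest in replicate 4. PRO5 (GRMZM5G877388) had 993, 1085, 1045 and 927 RPM and was lowest in that library by RPM, but in replicate 1 with TMM or DESeq2 scaling. The actin model GRMZM2G067985, named Actin-7, had 873, 794, 802 and 789 RPM, with replicate 1 above the rest by RPM and replicate 4 highest with either other scaling. Of 17 models with names of actin, profilin or actin-depolymerizing factor, 10 averaged 1 RPM or more and 6 were at 0 in every library. The next below the members was ADF3, for an actin-depolymerizing factor, at 354 RPM.

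Chromatin proteins among the members were the histone H1 gene hon110, the nucleosome assembly gene nfa101 and MNB1B, which encodes a high mobility group protein. The linker histone H1 binds DNA between nucleosomes, nucleosome assembly proteins carry core histones, and high mobility group proteins bend DNA. Hon110 had 979, 1361, 1232 and 1252 RPM, low in replicate 1 only. The level of nfa101 was 1131, 1194, 1231 and 1071 RPM. MNB1B had 1227, 936, 879 and 709 RPM, highest in replicate 1 and lowest in replicate 4. All 29 models with names of this class averaged at least 10 RPM, and 23 at least 100 RPM. Core histone genes among these named models stood lower than these members, with his2b2 at 385 RPM and his2a1 at 160 RPM, and HMG11 lay just below the threshold. Whether members without a gene name include core histone genes was not seen.

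Protein folding was represented by pdi and hsp70-4. Protein disulfide isomerase forms disulfide bonds in the endoplasmic reticulum, and pdi (PDIL1-1) had 1433, 1632, 1669 and 1226 RPM. HSP70 chaperones hold unfolded proteins and many are induced by heat and other stress. The gene hsp70-4 had 842, 1199, 1967 and 1366 RPM, highest in replicate 3 and lowest in replicate 1. Its range of 2.34-fold was the second largest of all members, and replicate 4 was at neither end of it. Of 37 models with chaperone names, 32 reached a mean of 1 RPM and 12 a mean of 100 RPM. The next below the members was HSP90-2 at 574 RPM.

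Among the remaining named members was yuc (GRMZM2G091819), named for the YUCCA flavin monooxygenases that make the auxin indole-3-acetic acid. Its level was 1398, 1809, 1291 and 803 RPM, highest in replicate 2 and lowest in replicate 4, a range of 2.25-fold. The 6 other models with YUCCA names, chosen after their values were seen, averaged 59.3 RPM for Yucca3 and 33.7 RPM for Yucca6, and the other 4 were at 0 in every library. Yucca3 had 76.0, 74.4, 58.9 and 27.9 RPM and was also lowest in replicate 4, while Yucca6 lay between 31.1 and 35.8 RPM. The summed basal transfer layer markers were lowest in the same library as yuc, at the 60.6 RPM given above, though the marker ebe1 was not. The part of these markers in this difference was not tested.

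The gene sam2, by its symbol of S-adenosylmethionine metabolism, had 1448, 1456, 1174 and 844 RPM. The Cu/Zn superoxide dismutase gene sod9, which removes superoxide, had 1011, 1119, 800 and 658 RPM. Both were low in replicate 4, with ranges of 1.72-fold and 1.70-fold. The exoglucanase gene exg1, whose product acts on cell wall glucans, had 2762, 2797, 2757 and 3175 RPM, so replicate 4 stood above a narrow group. Of 30 models with cell wall names 12 averaged 1 RPM or more, and the cellulose synthase gene cesa5 came next after exg1 at 173 RPM.

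The other named members ranged less than 1.5-fold. ANT1, the mitochondrial ADP/ATP translocator, averaged 882 ± 43.1 RPM and the 14-3-3 gene GF14-6, whose product binds phosphorylated proteins, 1112 ± 82.8 RPM. INO1, which makes inositol phosphate from glucose 6-phosphate, averaged 998 ± 40.3 RPM. TA1 averaged 2716 ± 129 RPM and RAB15 averaged 982 ± 112 RPM. Ndpk1, for a nucleoside diphosphate kinase that balances nucleotide pools, averaged 1461 ± 185 RPM, and its model is shared by 3 RefSeq records. Pgk-2, for the glycolytic enzyme phosphoglycerate kinase, averaged 778 ± 74.4 RPM and was not on the list of genes left out. Of 202 models with names of transcription factor families 72 reached a mean of 1 RPM, 2 reached 100 RPM and none was a member. The endosperm factor gene fl3 was on the list of genes left out, so it could not be a member at any level. Whether members without a gene name include transcription factor genes was not seen.

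Members known only by a locus number or without a record included some of the highest. GRMZM2G137864 (LOC100277357) had 8822, 6551, 7618 and 8483 RPM, GRMZM2G046532 (LOC100281766) had 6062, 4699, 4906 and 3376 RPM, and GRMZM2G469380 (LOC100275372) had 4572, 5254, 3803 and 3656 RPM. Of these, the models GRMZM2G046532 and GRMZM2G469380 were lowest in replicate 4 by RPM and GRMZM2G137864 was lowest in replicate 2. With TMM or DESeq2 scaling GRMZM2G469380 was lowest in replicate 3. The members with no record were led, after the partner of grp1, by GRMZM2G455799 at 2907 ± 171 RPM, GRMZM2G135177 at 2709 ± 143 RPM and GRMZM2G360677 at 2462 ± 322 RPM.

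In 2 cases a pair of members belonged to the same RefSeq gene. LOC100277357 holds GRMZM2G137864 and GRMZM2G305280, which had 1834, 1430, 1566 and 2552 RPM. The ratio of GRMZM2G305280 to GRMZM2G137864 was 0.208, 0.218 and 0.206 in replicates 1 to 3 and 0.301 in replicate 4. The models of LOC100282553, GRMZM2G055276 and GRMZM2G116282, had ratios of 1.04, 1.04, 0.980 and 0.914. The first ratio stood apart in replicate 4 and the second was lowest there, and neither difference was tested.

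The rule used the mean over the libraries and not the spread between them. A high value in 1 library raises that mean, so ranges and highest libraries of members are not wholly free of the choice. By a chi-square test of recovered reads between libraries with Benjamini-Hochberg adjustment at 0.05, all 140 members differed beyond counting error, against 44.3% of the 16516 models tested. The power of that test grows with reads, so a high count follows from the choice of abundant models. The size of the differences was small: the SD of log2(RPM + 0.5) over the 4 libraries had a median of 0.14 over the members, 0.15 over the next 150 models, a set chosen after the data were seen, and 0.22 over the 11272 models at 10 RPM or more. Of the members, 5 (3.57%) ranged at least 2-fold between libraries, against 11.6% of models at 10 RPM or more and 4 of the 150 models ranked next. The members had a median of 5286 reads per library, the next 150 models 2607 and the models at 10 RPM or more 150. Counting error widens the range of models with fewer reads more, so it affects the comparison with models at 10 RPM or more most.

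**Figure D3:**
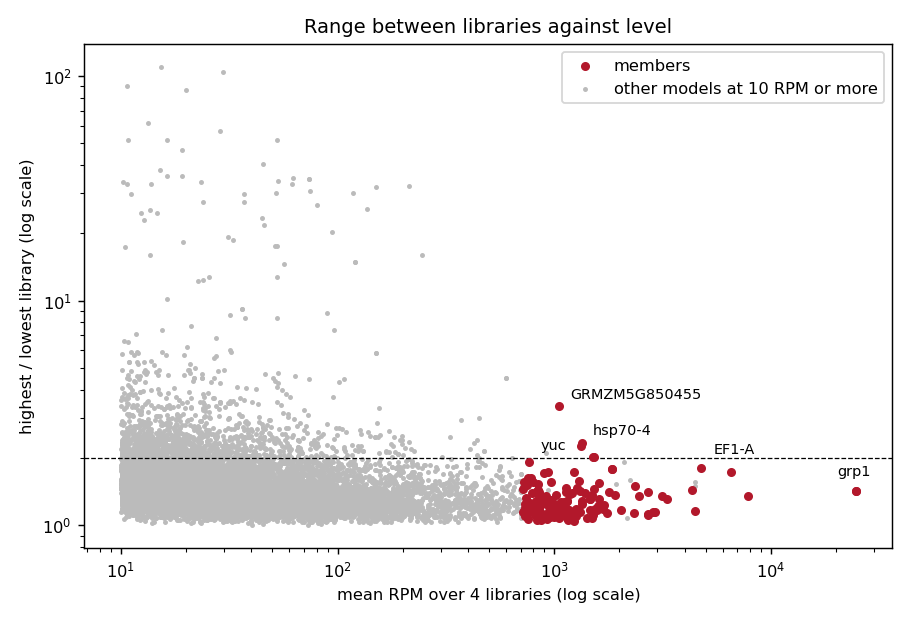
Highest library over lowest library (y axis, log scale) against mean RPM (x axis, log scale) for the members in red and for other models at 10 RPM or more with reads in every library in grey, with a dashed line at 2-fold. The members lie low and to the right, and 5 of them stand above the line, led by GRMZM5G850455 at 3.40-fold.

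The 5 members that ranged 2-fold or more were GRMZM5G850455, hsp70-4, yuc and the near-equal pair GRMZM2G015295 and GRMZM2G494688. GRMZM5G850455 (LOC100194231) had 844, 540, 990 and 1835 RPM, a range of 3.40-fold, lowest in replicate 2 and highest in replicate 4. GRMZM2G015295 (LOC100282150) had 1174, 1154, 1468 and 2315 RPM. Without replicate 4 only hsp70-4 among the members ranged 2-fold, against 248 of the 11272 models at 10 RPM or more. Without replicate 2 the count of members was 2. At the other end GRMZM2G131943 (LOC100194303) had 1204, 1252, 1240 and 1258 RPM, a range of 1.04-fold, and GRMZM2G098335, GRMZM2G172342 and GRMZM2G043822 ranged 1.05-fold to 1.07-fold.

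A range of 1.5-fold or more was found for 24 members (17.1%), against 18.7% of the next 150 models and 38.9% of models at 10 RPM or more. Replicate 4 was the highest library of 12 of the 24 and the lowest of 10. These counts describe the members only, as a model could enter the set through a high value in replicate 4. Without that library 133 of the 140 members stayed among the 150 highest models, against 136, 139 and 138 without replicates 1, 2 and 3. With near-equal models counted once it was the highest of 10 of 22 and the lowest of 10. Among the next 150 models, 28 ranged as widely, and replicate 4 was the highest of 11 and the lowest of 14. Among models at 10 RPM or more that ranged as widely, replicate 4 was the highest for 26.1% and the lowest for 58.1%. For GRMZM2G056039 and hsp70-4 replicate 4 was neither. The counts over the 24 members were equal with TMM and with DESeq2 size factors. The 12 that were highest in replicate 4 included EF1-A and PRO4, and the 10 that were lowest there included yuc, sam2, MNB1B and sod9. The summed markers of the basal transfer layer and of the embryo-surrounding region were lowest in that library. The summed embryo markers and the summed starchy endosperm markers, the latter mostly nkd1, were highest there, as given above. Their part in these differences was not tested.

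**Figure D4:**
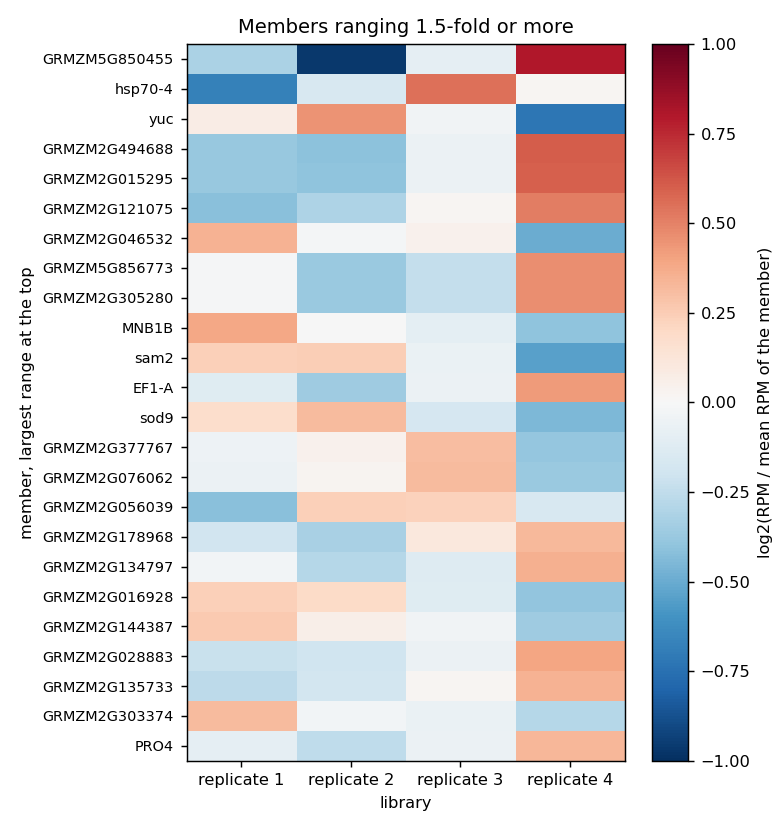
Log2 of RPM over the member's mean RPM (colour) in each library (columns) for the 24 members that ranged 1.5-fold or more (rows, largest range at the top). The colour of replicate 4 is at an extreme of the row in 22 of the 24, in 12 at the high end and in 10 at the low end.

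Over all members, replicate 4 was the highest library for 61 of 140 (43.6%), against 26.8% of models at 10 RPM or more. It was the lowest for 38 (27.1%), against 44.6% of those models. Replicate 2 was the lowest for 57 members (40.7%), against 18.4%, and the highest for 16 (11.4%), against 29.8%. Of the models ranked next, 38.0% were highest in replicate 4 and 25.3% lowest in replicate 2. These shares depend on scaling: with TMM library sizes, which raise replicate 4 by 0.11 on the log2 scale, replicate 4 was highest for 85 members (60.7%), against 57.3% of the next 150 models and 39.7% of models at 10 RPM or more. Under TMM the members and the next 150 models thus had similar shares. The highest library of 26 members and the lowest of 24 changed with TMM. In that scaling replicate 2 was lowest for 65 members (46.4%), against 28.0% of the next 150 models and 22.8% of models at 10 RPM or more.

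**Figure D5:**
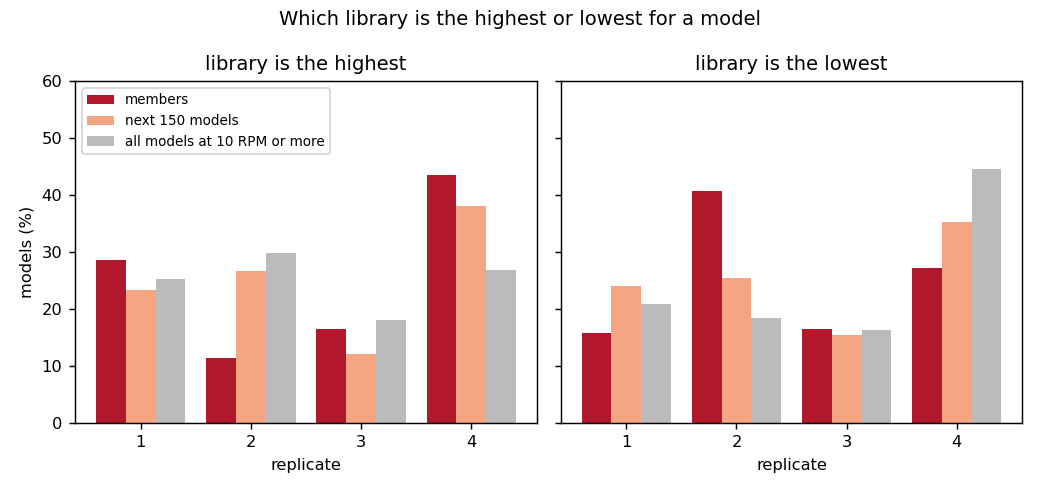
Share of models (y axis, %) for which each replicate (x axis) is the highest library (left) or the lowest (right), for members, for the next 150 models and for all models at 10 RPM or more. Replicate 4 is the highest for 43.6% of members and replicate 2 the lowest for 40.7%, against 26.8% and 18.4% of all models at 10 RPM or more.

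Sums are given for classes with several members, not for all of them. The translation factors summed to 8724, 8161, 9532 and 12493 RPM, and like the tubulins and the actin system they were highest in replicate 4 and lowest in replicate 2 with RPM, TMM and DESeq2 scaling. In the actin system PRO4 alone was highest in replicate 4 by RPM, and PRO5 and Actin-7 were lowest there. The chromatin proteins summed to 3336, 3492, 3342 and 3032 RPM, lowest in replicate 4 with RPM and in replicate 1 with the other scalings. The chaperones summed to 2276, 2831, 3636 and 2592 RPM, highest in replicate 3 and lowest in replicate 1 with RPM, TMM and DESeq2 scaling.

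The rule averaged the 4 libraries, so the members' ranks in them describe the choice and do not test it. Of the 140 members, 111 ranked among the 150 highest models in each of the 4 libraries, 18 in 3 of them, 8 in 2 and 3 in 1. The lowest rank of any member in any library was 228. When the 150 models were chosen on 3 libraries and looked up in the library left out, 134, 137, 138 and 129 ranked among its 150 highest for replicates 1 to 4, the fewest in replicate 4. There 21 of the 150 fell outside, and the lowest rank was 835. Across the members, Pearson's r between the log2 levels of 2 libraries was lowest between replicates 2 and 4, at 0.904, and highest between replicates 1 and 2, at 0.976. Genes are not independent replicates, and the 4 libraries shared 1 flow cell lane, so these values describe agreement only. The median difference between replicates 1 and 2 was 1.07-fold, and between replicates 2 and 4 it was 1.16-fold.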

How the data were processed

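Polyadenylated, amplified RNA of laser-captured endosperm was measured in 4 libraries of 1 group. The deposited files hold a signal per gene model, which the authors had scaled so that each library sums to 4773346, as the values show. The submitters' processing notes name bedtools. The aligner, the genome build, the annotation and the strand setting were not given in the sources used here. Divided by the smallest value above 0 in a library, all values came within 0.001 of a whole read (100% in each library), so reads were recovered by division. In replicate 3 this step, 1.00, is close to the unit step of rounded values, so the test on reads is also given without it. Because the unit is a signal and not counts, levels were analysed as RPM and log2(RPM + 0.5), and the count of differing models by chi-square on recovered reads is a comparison of libraries, not conditions.

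The test used TMM sizes (edgeR 4.0.16), with DESeq2 1.42.0 size factors as an alternative, in R 4.3.3. It was run on models kept by edgeR's filter on low reads and adjusted over all of them, and was tested on simulated data. Models were named through the synonyms in RefSeq's gene table (Zm-B73-REFERENCE-NAM-5.0), with no coordinates used. A marker model named by 2 symbols was counted once. Named models are the 15 highest members, the 3 highest of each class, the 8 with the largest and 5 with the smallest range and the 3 on each side of the threshold. Further members and family genes were chosen after their values were seen. Members and lists were chosen with earlier results of these data known. Protein, promoter and coding length comparisons were planned and not made, because no sequences or transcript lengths were used here. Some named members are not reported here.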

Additional observations from a re-analysis of the deposited data

Results flagged for a closer look

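In 3 of the 48 named models 1 library stood far from the other libraries relative to their range. The exoglucanase gene exg1 had 3175 RPM in replicate 4, against 2757 to 2797 RPM in the others. Actin-7 had 873 RPM in replicate 1, against 789 to 802 RPM. GRMZM2G043822 had 978 RPM in replicate 1, against 912 to 918 RPM. With TMM or DESeq2 scaling replicate 4 was the highest library of Actin-7 and of GRMZM2G043822, so replicate 1 stood above the others by RPM only. The gene exg1 was highest in replicate 4 with each scaling. Over all 140 members 10 met this criterion, and chance alone gives about 1 in 20. Both counts lie near that rate, and the share of all models that met the criterion is not given. The 3 models are therefore a description and no result about the members.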

How the results depend on the processing

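With near-equal models merged, the members' share of reads was 20.8% in place of 24.1%, because each pair is then counted once. The number of members ranging at least 2-fold was 5, between 1 and 4 with 1 replicate left out, 4 with near-equal models merged, 6 with TMM and 7 with DESeq2 size factors. Without replicate 4, where 1 member did so, 248 of the 11272 models at 10 RPM or more and 0 of the next 150 models ranged as widely. The share of all models in the other settings is not given, so these counts are no result about the members. The number that differed between libraries in the chi-square test lay between 123, without replicate 4, and 140, and was 137 without replicate 3. Without replicate 4 it was set against 17.4% of all models tested, and without replicate 3 against 40.9%. The median SD of log2 levels lay between 0.11, without replicate 4, and 0.17, with DESeq2 size factors. Without replicate 4 the same median was 0.16 for models at 10 RPM or more. Of the 140 members, 133 to 139 stayed among the 150 highest models with 1 replicate left out, and 136 did so when ranked by median RPM. The 48 named levels moved by less than 1 SD with TMM. They also did so with each replicate left out, which tests nothing. A mean of 4 values cannot move by 1 SD of those values when 1 is dropped. Ranking per coding length was not run. TMM and DESeq2 scaling raised replicate 4 by 0.11 on the log2 scale. The scalings by library in the text and the set of the next 150 models were added after seeing the data. Every member had at least 1964 reads in each library, and reads of near-equal models cannot be assigned to either model at any depth.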

Other observations

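Some models outside the members ranked among the 150 highest on replicates 1 to 3 alone. The near-equal models GRMZM2G406552 and GRMZM2G406557, chosen after their values were seen, ranked 835 in replicate 4. GRMZM2G406552 had 514, 896, 787 and 199 RPM in replicates 1 to 4. The summed basal transfer layer markers had 293, 600.4, 501 and 60.6 RPM in the same libraries, and a relation between them was not tested.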
